A study of Mus musculus with 15 samples.

Results

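The NRF2 and antioxidant genes described here, 10 of the 22180 genes measured, were followed in mouse aorta after a diet rich in phosphate. They were Nfe2l2, Nqo1, Hmox1, Gclc, Gclm, Txnrd1, Srxn1, Sod2, Cat and Gpx3. The members were set by name, and each was read from the 1 probe set that names that gene alone. All 10 had such a probe set, and no filter on low values was applied. Averaged over both aortic segments, Sod2 was lower and Hmox1 and Gpx3 were higher on the high-phosphate diet than on standard chow, and none of the other 7 genes passed the test.

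The data are 15 expression arrays of aortic RNA from DBA/2NCrl mice, an inbred strain, aged 8 weeks at the start. The groups were 4 arrays of abdominal aorta on the high-phosphate diet (HPD, 20.2 g phosphorus per kg), 4 of abdominal aorta on standard chow (SCD, 7.0 g per kg), 3 of thoracic aorta on HPD and 4 of thoracic aorta on SCD. Each diet was fed for 5 days, and all mice were otherwise described alike, with no genetic change or further treatment in the labels. The labels call the arrays biological replicates and say neither how many animals gave each sample nor whether 1 mouse gave both segments, so p-values measure only the spread between these samples. The study asks how dietary phosphate changes gene expression in the aorta. Values below are log2 intensities, so a difference of 1 is a 2-fold change, and changes are log2 differences ± SE. In bulk tissue, fewer cells of a type and less RNA per cell cannot be told apart.

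Nfe2l2 encodes NRF2, a transcription factor that KEAP1 holds back and marks for breakdown in unstressed cells. Oxidants and electrophiles release it, and it then pairs with small MAF proteins on antioxidant response elements and raises the transcription of genes that detoxify quinones, make glutathione and reduce oxidised thiols. NRF2 is controlled mainly at the protein level, so its transcript is only a partial reading of its activity. Sod2 and Cat, which remove superoxide in mitochondria and hydrogen peroxide in peroxisomes, and Gpx3, a secreted peroxidase of plasma, belong to the wider antioxidant system and are under several other controls as well.

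Promoter sequence from RefSeq (GRCm38.p6) was at hand for 8 of the 10 genes, in 10 windows of 300 bases that run from 250 bases before a transcript start to 50 after it. The core of the antioxidant response element, TGACNNNGC, was searched on both strands. It occurred in 4 of these 10 windows, 1 for each of 4 genes, against 12.4% of all 32851 windows of the same length. The longer form TGACTCAGC, which is a case of the core, occurred in none of the 10 and in 0.454% of all windows. The 4 matches are shown because they are the sequence feature by which several of these genes can be compared. Each is given 5′ to 3′ along its gene's strand with 10 bases on either side, and capitals mark the match. In Gclm, Txnrd1 and Srxn1 the core reads on the opposite strand.
Nfe2l2, chr2:75704885-75704913, minus strand: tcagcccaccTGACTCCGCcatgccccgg
Gclm, chr3:122245413-122245441, plus strand: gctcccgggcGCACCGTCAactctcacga
Txnrd1, chr10:82859104-82859132, plus strand: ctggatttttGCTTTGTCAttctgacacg
Srxn1, chr2:152105542-152105570, plus strand: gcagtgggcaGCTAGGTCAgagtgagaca

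The matches begin 240 bases before the start in Nfe2l2, 134 before it in Gclm and 92 before it in Txnrd1, in the second of 3 windows listed for that gene. In Srxn1 the match begins at base 29 of the transcript. None of these 4 genes was called in any of the 6 comparisons below. The windows of Nqo1, Sod2, Cat and Gpx3 held no match, which says only that these letters are not in those 300 bases. For the 2 genes with a window that were called for diet, Sod2 and Gpx3, the 250 bases before the start are given in full, in lower case because no match to the core was found.
Sod2, chr17:13007589-13007838, plus strand: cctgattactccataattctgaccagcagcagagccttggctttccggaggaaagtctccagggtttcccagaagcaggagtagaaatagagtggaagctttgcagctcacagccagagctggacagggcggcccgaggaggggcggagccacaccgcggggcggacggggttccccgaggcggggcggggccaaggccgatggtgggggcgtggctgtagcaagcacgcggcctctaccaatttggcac
Gpx3, chr11:54902604-54902853, plus strand: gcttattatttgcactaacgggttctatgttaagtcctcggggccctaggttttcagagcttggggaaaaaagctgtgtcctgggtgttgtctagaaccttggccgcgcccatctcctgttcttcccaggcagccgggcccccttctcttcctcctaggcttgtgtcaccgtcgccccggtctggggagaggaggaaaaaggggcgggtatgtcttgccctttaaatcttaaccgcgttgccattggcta

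**Figure D1:**
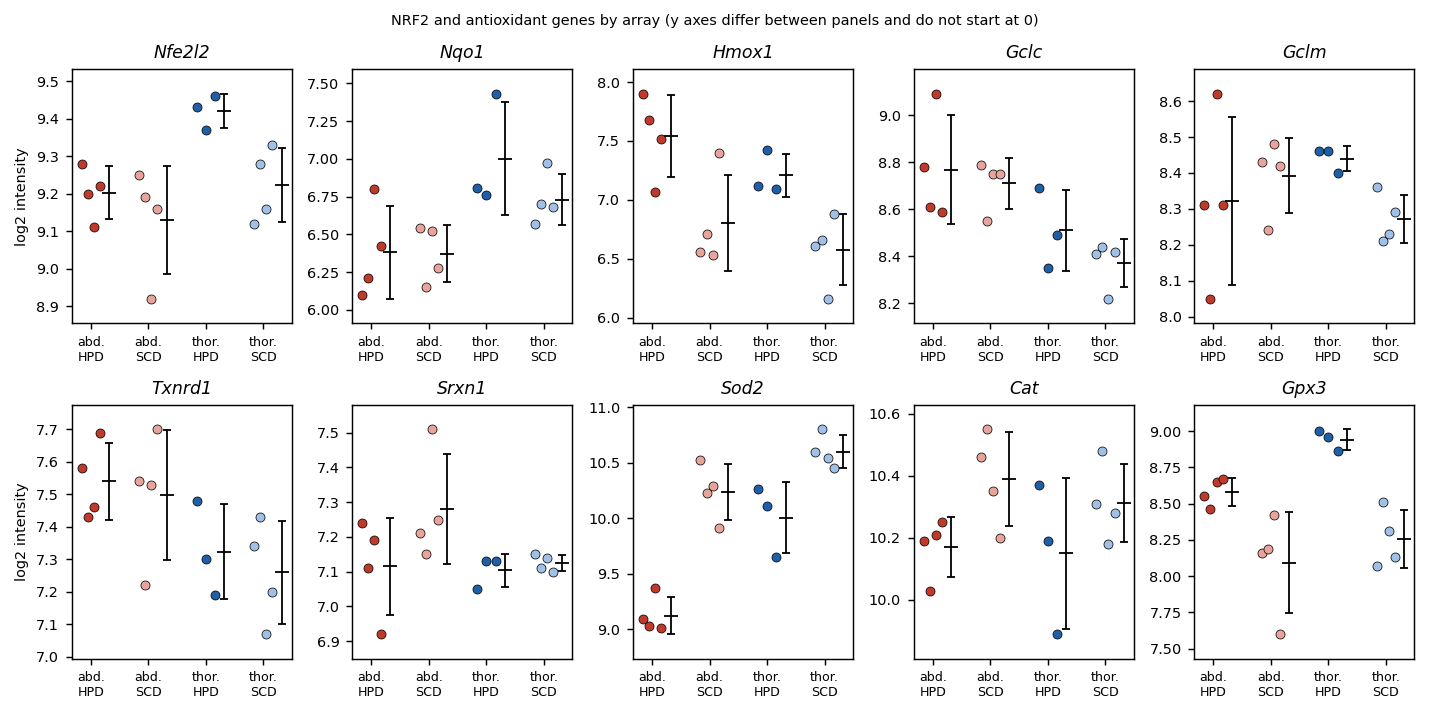
Log2 intensity (y axis) of each gene on every array (points), with the mean and SD of each group beside them (bar and whiskers), for abdominal HPD, abdominal SCD, thoracic HPD and thoracic SCD from left to right. Sod2 sits lower on HPD than on SCD in both segments, with abdominal HPD arrays between 9.01 and 9.37 and abdominal SCD arrays between 9.91 and 10.52.

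Some arrays carried transcripts that mark neighbouring tissues, which bears on the comparisons below. Smooth muscle genes were bright on every array, with a mean over 10 of them between 8.01 and 9.26. The mean of 12 hepatocyte genes was 8.80 and 10.75 in abdominal HPD arrays 3 and 4. It was 6.27 and 6.91 in thoracic SCD arrays 1 and 4, against 5.69 to 5.88 on the other arrays. Fits without the 2 arrays with hepatocyte genes leave out only the abdominal HPD ones. The mean of 6 adrenal cortex genes was 5.58 in abdominal HPD array 2, against 4.60 to 4.90 on the other arrays. For T and NK cells, a mean over 10 marker genes was 7.30 to 8.10 on 5 abdominal arrays, HPD 1, 2 and 4 and SCD 2 and 4, against 5.47 to 6.15 on the rest. A mean over 4 lymph node vessel genes was 6.67 to 8.05 on all 8 abdominal arrays, against 5.85 to 6.11 on thoracic arrays. Fits without the 5 arrays are therefore not free of lymph node vessel transcripts. The mean of 11 brown adipocyte genes lay between 7.13 and 9.27, and that of 8 skeletal muscle genes between 5.20 and 7.99. Results are given with and without the 2 hepatocyte and the 5 lymphocyte arrays where that matters. No detection calls were at hand, so no gene can be called absent.

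Sod2, the manganese superoxide dismutase of the mitochondrial matrix, had the largest averaged diet change of the 10 genes and was the only one of them called lower. In abdominal aorta it read 9.09, 9.03, 9.37 and 9.01 on HPD arrays 1 to 4, against 10.52, 10.23, 10.29 and 9.91 on SCD arrays 1 to 4. Every HPD array was below every SCD array. The groups averaged 9.13 ± 0.17 on HPD and 10.24 ± 0.25 on SCD (SD, n = 4 each), a change of -1.11 ± 0.14, or 2.16-fold lower (limma, adjusted p = 0.000211). The call held with each of the 15 arrays left out in turn (adjusted p up to 0.00126) and without the 2 arrays with hepatocyte genes (-1.18, adjusted p = 0.00135). Without the 5 arrays with lymphocyte genes, which left 1 HPD array assumed to vary like the other groups, it was -1.03 and no longer passed (adjusted p = 0.0736).

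In thoracic aorta Sod2 read 10.26, 10.11 and 9.65 on HPD arrays 1 to 3, against 10.60, 10.80, 10.54 and 10.45 on SCD arrays 1 to 4. The groups again did not overlap, and HPD array 3 was the lowest. The change was -0.59 ± 0.152, with a 95% confidence interval of -0.91 to -0.27, and just missed the threshold (adjusted p = 0.0559). It was -0.41 (adjusted p = 0.235) without HPD array 3 and -0.71 without HPD array 1 (adjusted p = 0.0382). It also passed, at the same -0.59, without abdominal HPD array 3 or abdominal SCD array 1 or 4 (adjusted p = 0.0361 to 0.0454). Averaged over the segments the fall was -0.85 ± 0.103, or 1.8-fold (adjusted p = 7.84e-05). That average was called in each of the 24 other settings in which it was fitted, with values from -0.91 to -0.76. The abdominal minus the thoracic change was -0.52 ± 0.207, which did not pass over all genes (adjusted p = 0.879).

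The order of Sod2 levels was thoracic SCD, abdominal SCD, thoracic HPD and abdominal HPD, with means of 10.60, 10.24, 10.01 and 9.13. The difference between the 2 chow groups did not pass (adjusted p = 0.168), and the ranges of abdominal SCD and thoracic HPD overlapped. On HPD, Sod2 was higher in the thoracic than in the abdominal segment, with 10.01 ± 0.32 (n = 3) against 9.13 ± 0.17 (n = 4) and a difference of 0.88 ± 0.152 (adjusted p = 0.0018). Without the 5 arrays with lymphocyte genes that difference was 0.64 and did not pass (adjusted p = 0.193).

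Markers of several cell types moved with Sod2. Over the 15 arrays, which share segment and diet, Pearson's r of Sod2 with the mean of a marker list was 0.96 for brown adipocytes, 0.94 for adipocytes in general, 0.92 for adventitial fibroblasts and 0.80 for endothelium. Of 11 brown adipocyte genes, 10 fell in the abdominal and 6 in the thoracic segment, where 5.06% and 1.08% of all genes were called lower. Their mean was 7.13 to 7.58 on abdominal HPD arrays, against 8.63 to 9.04 on abdominal SCD arrays. In the thoracic segment it was 7.75 to 8.37 on HPD and 9.01 to 9.27 on SCD. In the averaged diet change 7 of 10 adventitial fibroblast genes fell and 1 rose, 5 of 11 general adipocyte genes fell, and 3 of 10 endothelial genes fell and 1 rose, where 4.53% of all genes were called higher and 6.18% lower. The adventitial fibroblast mean was 8.06 to 8.21 on abdominal HPD arrays, against 8.67 to 8.94 on abdominal SCD arrays, and 8.41 to 8.76 on thoracic HPD arrays, against 8.74 to 8.84 on thoracic SCD arrays. Between segments on HPD, 5 of 11 brown adipocyte, 6 of 11 general adipocyte, 5 of 10 adventitial fibroblast, 9 of 10 cardiac muscle and 10 of 10 smooth muscle genes were higher in the thoracic aorta, where 7.57% of all genes were. The part of these cell types in the values of Sod2 was not tested.

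Among all genes, those most like Sod2 over the 15 arrays, by Pearson's r of log2 values, were Mcur1 (0.996), Echs1 (0.994) and Clybl (0.991). Echs1 is an enzyme of mitochondrial fatty acid oxidation, Mcur1 a regulator of mitochondrial calcium uptake and Clybl a mitochondrial lyase. With group means removed the r values were 0.960, 0.948 and 0.940. In the averaged diet change Mcur1 fell by 0.68, Echs1 by 0.76 and Clybl by 0.70. These r values describe arrays that share segment, diet and tissue make-up.

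Hmox1 encodes haem oxygenase 1, which breaks down haem and is strongly induced by NRF2 and by haem itself in macrophages. It read 7.90, 7.68, 7.07 and 7.52 on abdominal HPD arrays 1 to 4, against 6.56, 6.71, 6.53 and 7.40 on abdominal SCD arrays 1 to 4. The groups overlapped through HPD array 3, the lowest, and SCD array 4, the highest of its group. The rise was 0.75 ± 0.208, or 1.68-fold (limma, adjusted p = 0.0415). The call was lost in 9 of the 15 fits without 1 array (adjusted p up to 0.138), namely without abdominal HPD 1, 2 or 4, abdominal SCD 1, 2 or 3, thoracic HPD 1, or thoracic SCD 1 or 2. It was 0.53 (adjusted p = 0.463) without the 5 arrays with lymphocyte genes and 0.99 (adjusted p = 0.0199) without the 2 with hepatocyte genes.

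In thoracic aorta Hmox1 read 7.12, 7.42 and 7.09 on HPD arrays, against 6.61, 6.66, 6.16 and 6.88 on SCD arrays. All 3 HPD arrays lay above all 4 SCD arrays. The change of 0.63 ± 0.225 did not pass (adjusted p = 0.188). Averaged over the segments Hmox1 rose by 0.69 ± 0.153, or 1.61-fold (adjusted p = 0.00795), and this call held in the 24 other settings, at 0.58 to 0.81 and with adjusted p up to 0.0489. Its diet changes in the 2 segments differed by 0.12 ± 0.306 (abdominal minus thoracic, adjusted p = 0.971).

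Macrophage genes moved with Hmox1. Of 12 measured, 7 rose and 0 fell in the averaged diet change, with a median of 0.38, where 4.53% of all genes were called higher. Their mean was 7.97 to 8.38 on abdominal HPD arrays, against 7.47 to 8.03 on abdominal SCD arrays, and 8.01 to 8.51 on thoracic HPD arrays, against 7.57 to 7.83 on thoracic SCD arrays. Cd68, a lysosomal marker of macrophages, lay between 7.77 and 9.35 on the 15 arrays. Over the 15 arrays the r of Hmox1 was 0.82 with macrophage genes and 0.70 with T and NK cell genes, and -0.84 with brown adipocyte and -0.77 with adventitial fibroblast genes. The part of these cell types in the change of Hmox1 was not tested. The genes most like Hmox1 were Prrc2c, Cnot6l and Pias1 (Pearson's r 0.938, 0.920 and 0.920 over 15 arrays).

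Gpx3, the secreted glutathione peroxidase and a selenoprotein, rose in both segments. On abdominal arrays it read 8.55, 8.46, 8.65 and 8.67 on HPD, against 8.16, 8.19, 8.42 and 7.60 on SCD. The groups did not overlap, though HPD array 2 and SCD array 3 lay close together and SCD array 4 was the lowest. The rise was 0.49 ± 0.14, or 1.4-fold (limma, adjusted p = 0.0479). This call was lost in 13 of the 15 fits without 1 array, all but those without abdominal SCD array 3 and thoracic SCD array 2, with adjusted p up to 0.12. It was 0.33 without abdominal SCD array 4 (adjusted p = 0.0753), 0.41 without the 2 arrays with hepatocyte genes (adjusted p = 0.189) and 0.36 without the 5 with lymphocyte genes (adjusted p = 0.52).

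On thoracic arrays Gpx3 read 9.00, 8.96 and 8.86 on HPD, against 8.07, 8.51, 8.31 and 8.13 on SCD. The HPD arrays were tightly grouped above all SCD arrays. The means were 8.94 ± 0.07 on HPD (n = 3) and 8.25 ± 0.20 on SCD (n = 4), a rise of 0.69 ± 0.152, or 1.61-fold (adjusted p = 0.0263). The call was lost without thoracic HPD array 1, 2 or 3 or thoracic SCD array 1 or 4 (adjusted p up to 0.0906), with a rise of 0.625 to 0.77 over all fits without 1 array. Averaged over the segments the rise was 0.59 ± 0.103 (adjusted p = 0.00144), and it was called in the 24 other settings at 0.51 to 0.64.

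Gpx3 went up on HPD while Sod2 and brown adipocyte genes went down, but it did not mirror them. Over the 15 arrays the r of Gpx3 was -0.50 with brown adipocyte genes, 0.49 with macrophage genes and -0.29 with Sod2. Gpx3 averaged 8.94 on thoracic HPD and 8.58 on abdominal HPD arrays, where the brown adipocyte mean was 8.08 and 7.34. For 6 markers of the kidney tubule, a major source of plasma Gpx3, the mean lay between 5.21 and 5.60 on all arrays, and their median diet change was -0.06 in the abdominal and -0.01 in the thoracic segment. The part of any of these cell types in the rise of Gpx3 was not tested. The genes most like Gpx3 were Pxmp2, a peroxisomal membrane protein, Mapk1ip1 and Pbld1 (Pearson's r 0.906, 0.906 and 0.901 over 15 arrays). With group means removed these were 0.659, 0.694 and 0.780.

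**Figure D2:**
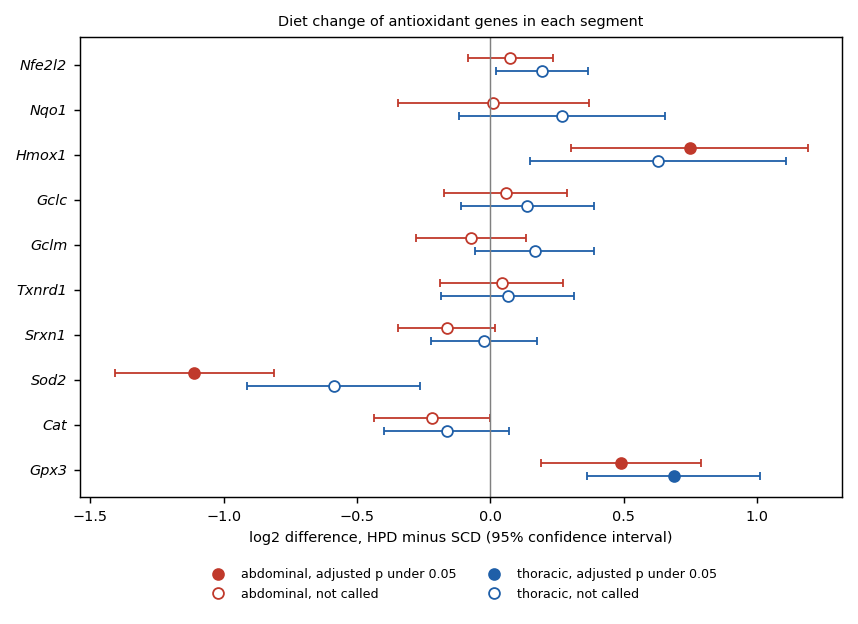
Diet change (HPD minus SCD, log2, x axis) of each gene in the abdominal and thoracic segment with 95% confidence intervals. Filled points passed an adjusted p under 0.05, and Sod2 lies to the left while Hmox1 and Gpx3 lie to the right in both segments.

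**Figure D3:**
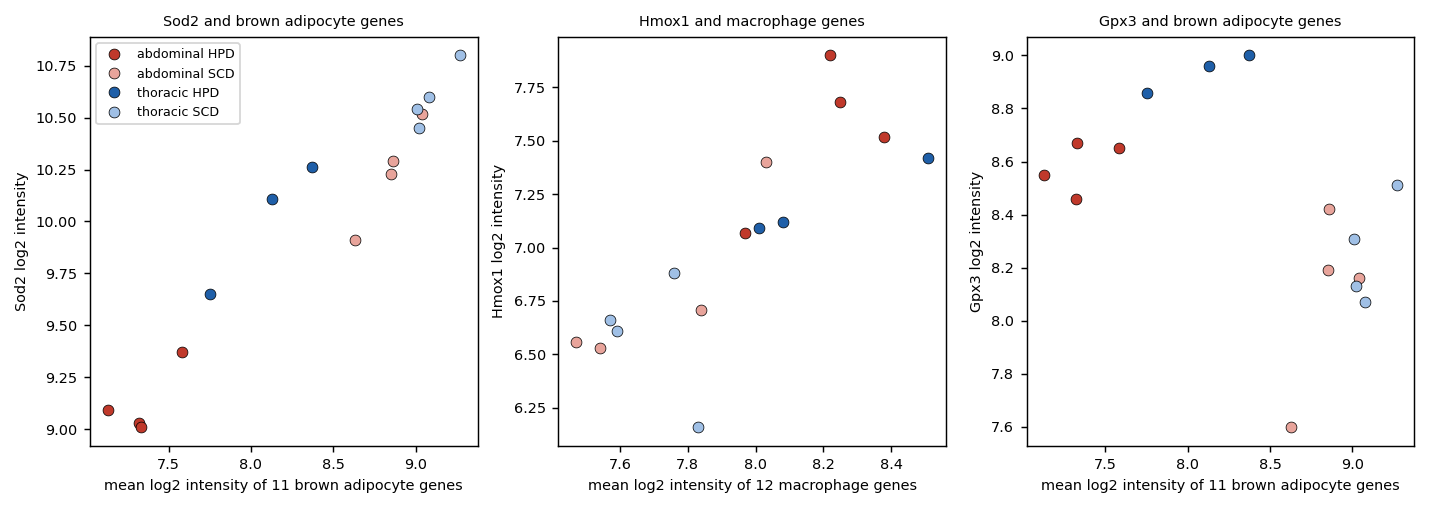
Each point is 1 array, with the mean log2 intensity of a marker list on the x axis and the log2 intensity of Sod2, Hmox1 or Gpx3 on the y axis. Sod2 is high where brown adipocyte genes are high, Hmox1 is high where macrophage genes are high, and Gpx3 is highest on the thoracic HPD arrays.

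Across the 10 genes, 3 were called in the abdominal diet change, 2 higher and 1 lower, where 7.01% of all genes were called, 1.95% higher and 5.06% lower. In the thoracic diet change 1 was called, Gpx3, where 2.47% of all genes were, 1.39% higher and 1.08% lower. In the average 3 were called, where 10.7% of all genes were. The median change of the 10 was 0.03, 0.15 and 0.08 in these 3 comparisons, where the median of all genes was -0.00799, -0.0112 and -0.00754. The groups did not overlap for 2 of the 10 genes in the abdominal segment, where 11.9% of all genes did not, and for 5 in the thoracic segment, where 13.8% did not. None of the 10 passed the test of a difference between the 2 diet changes. For that comparison limma called 0 of 22180 genes, though 1217 had an unadjusted p under 0.05, of the 10 genes Sod2 alone.

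Nfe2l2 itself was not called for diet. It read 9.28, 9.20, 9.11 and 9.22 on abdominal HPD arrays, against 9.25, 9.19, 8.92 and 9.16 on abdominal SCD arrays, and 9.43, 9.37 and 9.46 on thoracic HPD arrays, against 9.12, 9.28, 9.16 and 9.33 on thoracic SCD arrays. The abdominal groups overlapped, and the 3 thoracic HPD arrays lay just above the 4 SCD arrays. The changes were 0.07 ± 0.0746 and 0.195 ± 0.0806 (adjusted p = 0.644 and 0.28), and the average was 0.135 ± 0.0549 with a 95% interval of 0.02 to 0.25 (adjusted p = 0.148). Its SD over the 15 arrays, 0.14, was at the 23.9th percentile of all genes, against the 95.9th for Sod2.

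Unlike Hmox1, the classical NRF2 targets Nqo1, Gclc, Gclm, Txnrd1 and Srxn1 were not called for diet in either segment. Nqo1, a quinone reductase often used as a readout of NRF2, averaged 6.38 ± 0.31 on abdominal HPD and 6.37 ± 0.19 on abdominal SCD arrays (n = 4 each), and 7.00 ± 0.37 on thoracic HPD (n = 3) and 6.73 ± 0.17 on thoracic SCD arrays (n = 4). Its averaged diet change was 0.14 ± 0.124 (95% interval -0.12 to 0.40). Gclc and Gclm, the catalytic and modifier subunits of the enzyme that starts glutathione synthesis, gave 0.10 ± 0.0795 (-0.07 to 0.27) and 0.05 ± 0.071 (-0.10 to 0.20). The groups overlapped for Gclc in both segments and for Gclm in the abdominal one. On thoracic arrays Gclm lay between 8.40 and 8.46 on HPD, against 8.21 to 8.36 on SCD, with no overlap, and the change of 0.17 ± 0.104 did not pass (adjusted p = 0.556). Txnrd1, the cytosolic thioredoxin reductase, gave 0.05 ± 0.0801 (-0.12 to 0.22). Srxn1, which repairs overoxidised peroxiredoxins, gave -0.095 ± 0.0632 (-0.23 to 0.04). Adjusted p-values of these 5 lay between 0.426 and 0.761.

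Cat, the peroxisomal catalase, gave a small negative diet change that did not pass. It lay between 10.03 and 10.25 on abdominal HPD arrays, against 10.20 to 10.55 on abdominal SCD arrays, and between 9.89 and 10.37 on thoracic HPD arrays, against 10.18 to 10.48 on thoracic SCD arrays. The ranges overlapped in both segments. The averaged change was -0.19 ± 0.0748 (adjusted p = 0.13), and it passed in 1 of the 24 other settings, without thoracic HPD array 1 (-0.25, adjusted p = 0.0486).

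Between the segments, 2 of the 10 genes were higher in the thoracic aorta on HPD, Sod2 and Nqo1, and none was lower, where 7.57% of all genes were called higher and 6.25% lower. Nqo1 read 6.81, 6.76 and 7.43 on thoracic HPD arrays, against 6.10, 6.21, 6.80 and 6.42 on abdominal HPD arrays. Thoracic array 3 stood well above the rest, and abdominal array 3 reached the level of the lower thoracic arrays. Skeletal muscle genes averaged 7.59 on thoracic HPD array 3, against 6.04 and 5.69 on thoracic HPD arrays 1 and 2. On abdominal HPD array 3, the highest of its group for Nqo1, they averaged 5.22. Over the 15 arrays their r with Nqo1 was -0.06, and their part was not tested. The difference of Nqo1 was 0.62 ± 0.181, or 1.53-fold (limma, adjusted p = 0.0349). The call was lost without abdominal HPD array 1, 2 or 4 or thoracic HPD array 1 or 3, with values of 0.40 to 0.76 over all fits without 1 array. It was 0.20 (adjusted p = 0.834) without the 5 arrays with lymphocyte genes.

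On SCD none of the 10 genes was called between segments, where 4.78% of all genes were, 1.76% higher and 3.02% lower, and 4 of the 10 had an unadjusted p under 0.05, as did 4311 of the 22180 genes. Nqo1 gave 0.36 ± 0.168 there (adjusted p = 0.257), and its 4 thoracic arrays all lay above the 4 abdominal ones. Smooth muscle genes moved with Nqo1, with a mean of 9.06 to 9.26 on thoracic HPD arrays, against 8.01 to 8.63 on abdominal HPD arrays, and 8.93 to 9.10 on thoracic SCD arrays, against 8.06 to 8.68 on abdominal SCD arrays. Cardiac muscle genes moved with it too, with a mean over 10 of them of 7.88 to 8.67 on thoracic arrays, against 5.99 to 6.26 on abdominal arrays, and 9 of 10 higher on HPD and 7 of 10 on SCD. Over the 15 arrays the r of Nqo1 was 0.84 with smooth muscle, 0.73 with cardiac muscle and -0.78 with T and NK cell genes. The part of these cell types in the difference was not tested. The gene most like Nqo1, at a Pearson's r of 0.925 over 15 arrays, was Lmod1, an actin nucleator of smooth muscle that is also 1 of those 10 markers.

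Gclc gave negative segment differences. It lay between 8.22 and 8.44 on thoracic SCD arrays, against 8.55 to 8.79 on abdominal SCD arrays, with no overlap. The difference of -0.34 ± 0.108 did not pass (adjusted p = 0.0923), though it did in 3 of 25 other settings, among them without abdominal HPD array 3, and on HPD it was -0.26 ± 0.117 (adjusted p = 0.163). Txnrd1 gave -0.24 ± 0.109 on SCD (adjusted p = 0.245). Markers of sympathetic neurons and chromaffin cells, whose mean was 7.46 to 8.67 on abdominal and 5.55 to 6.43 on thoracic arrays, moved with both genes (r 0.74 for Gclc and 0.66 for Txnrd1 over 15 arrays). Cardiac muscle genes ran the other way (r -0.73 and -0.66), as did smooth muscle (-0.51 and -0.71) and kidney tubule genes (-0.62 and -0.65). The kidney tubule mean lay only between 5.21 and 5.60 on all arrays, below the array medians of 5.778 to 5.84. Lymph node vessel genes gave an r of 0.62 with both Gclc and Txnrd1. The 15 arrays include both segments, so these r values also carry the segment differences themselves. The part of these cell types was not tested.

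**Figure D4:**
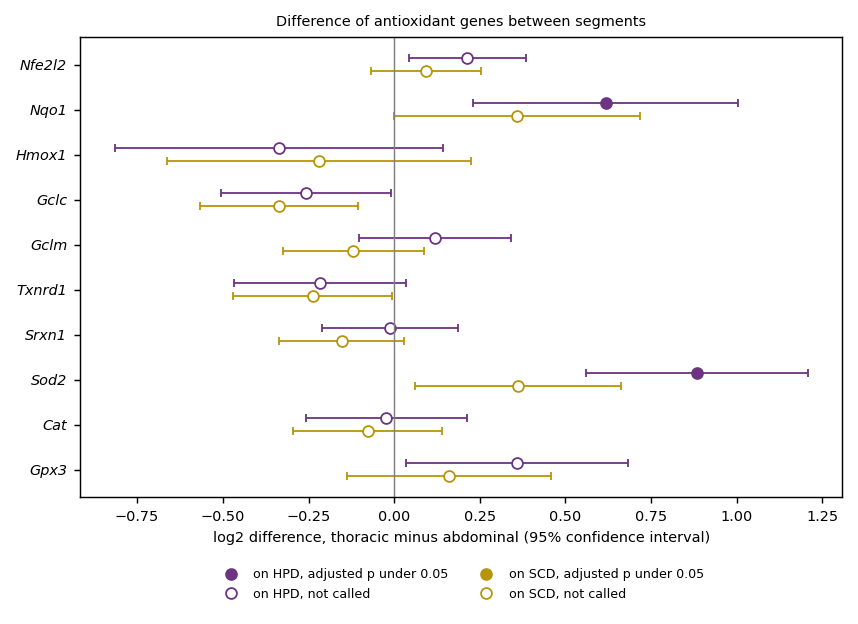
Difference between segments (thoracic minus abdominal, log2, x axis) of each gene on HPD and on SCD with 95% confidence intervals. Filled points passed an adjusted p under 0.05, which only Sod2 and Nqo1 on HPD did.

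The wider antioxidant network was read from gene lists chosen with earlier results of these data known. Of 13 measured regulators and partners of NRF2, 1 rose and 1 fell in the averaged diet change, where 4.53% of all genes were called higher and 6.18% lower, so the list's share was near that of all genes. Sqstm1, an autophagy receptor that binds KEAP1 and is itself an NRF2 target, rose by 0.25 (adjusted p = 0.000804). It averaged 8.58 ± 0.05 on abdominal HPD arrays and 8.39 ± 0.07 on abdominal SCD arrays, and 8.58 ± 0.05 on thoracic HPD arrays and 8.27 ± 0.03 on thoracic SCD arrays. Nfe2l1, an NRF2 relative that drives proteasome genes, fell by 0.21 (adjusted p = 0.00685). Keap1, the brake on NRF2, gave -0.08 (adjusted p = 0.446), and Bach1, a repressor of Hmox1, 0.22 (adjusted p = 0.0541). The list's median was 0.06.

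Of 30 other NRF2 target genes measured, 3 rose and 4 fell in the average, with a median of -0.02, beside the same 4.53% and 6.18% of all genes. Taldo1, transaldolase of the pentose phosphate pathway, fell by 0.79 (adjusted p = 4.45e-05), Me1, malic enzyme, by 1.01 (adjusted p = 0.00725) and Pgd by 0.55 (adjusted p = 0.0107). Pgd is another enzyme of the pentose phosphate pathway, and Me1 also serves fat synthesis. In the thoracic segment 1 gene of the list was called, Taldo1 (-0.66, adjusted p = 0.016), where 2.47% of all genes were. Gstm1, a glutathione transferase, rose by 0.28 (adjusted p = 0.00922) and Fth1, the ferritin heavy chain, by 0.11 (adjusted p = 0.0472).

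Of 36 other superoxide, peroxide and thiol genes, 3 rose and 9 fell in the average, with a median of -0.12, where 4.53% of all genes were called higher and 6.18% lower. Glrx5, a mitochondrial glutaredoxin of iron-sulfur cluster assembly, fell by 0.55 (adjusted p = 0.000144), and Gpx8, a peroxidase of the endoplasmic reticulum, by 0.62 (adjusted p = 0.000643). Msrb2, a mitochondrial methionine sulfoxide reductase, fell by 0.37 (adjusted p = 0.000829). Sesn1, a sestrin and p53 target, rose by 0.65 (adjusted p = 0.000124), and its HPD arrays lay at 8.79 or above, against SCD arrays at 8.71 or below. In the abdominal segment 3 of the 36 rose and 8 fell (median -0.21), where 1.95% of all genes were called higher and 5.06% lower. In the thoracic segment 2 rose and 1 fell (median -0.04), where 1.39% and 1.08% were. Gpx8 (-0.39, adjusted p = 0.198) and Msrb2 (-0.24, adjusted p = 0.213) were not called there. None of the 36 was called for a difference between the 2 diet changes.

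Between segments on HPD, 14 of those 36 genes were higher and 2 lower in the thoracic aorta, with a median of 0.25. Of all genes 13.8% were called in that comparison, 7.57% higher and 6.25% lower. Sod3, the extracellular superoxide dismutase, was 0.89 higher in the thoracic aorta (adjusted p = 0.000993) and Idh2, a mitochondrial source of NADPH, 0.80 higher (adjusted p = 0.00364). Smooth muscle genes, 10 of 10, and cardiac muscle genes, 9 of 10, were also higher there on HPD. The part of these cell types was not tested. On SCD the median of the 36 was 0.12. The diet and segment comparisons share arrays and are not independent of each other.

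Of 16 oxidant-producing genes, 1 rose and 2 fell in the averaged diet change, where 4.53% of all genes were called higher and 6.18% lower. Xdh, xanthine oxidoreductase, rose by 1.13 (adjusted p = 3.59e-05). It averaged 8.30 ± 0.34 on abdominal HPD arrays and 7.32 ± 0.21 on abdominal SCD arrays, and 8.32 ± 0.40 on thoracic HPD arrays and 7.05 ± 0.02 on thoracic SCD arrays, with no overlap in either segment. Aoc3, an amine oxidase of adipocytes and smooth muscle, fell by 0.68 (adjusted p = 0.000251), and Nos3, the endothelial nitric oxide synthase, by 0.31 (adjusted p = 0.0179). Nos3 is also 1 of the 10 endothelial markers, and among the 3 of them that fell in the average. Cybb, the catalytic subunit of the phagocyte NADPH oxidase, gave 0.75 (adjusted p = 0.0721). Nox4, an oxidase of the vessel wall, was 1.00 higher in the thoracic segment on HPD (adjusted p = 0.019). Smooth muscle genes were higher there too, and their part in Nox4 was not tested. Maoa, a monoamine oxidase of mitochondria, was -2.24 and -2.45 thoracic minus abdominal on HPD and SCD (adjusted p = 0.000213 and 8.15e-05). Sympathetic neuron and chromaffin markers differed alongside Maoa, with medians of -2.83 on HPD and -2.84 on SCD and 7 and 6 of 8 called lower, where 6.25% and 3.02% of all genes were, and their part was not tested.

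Of 11 FoxO factors, coactivators, nuclear receptors and deacetylases listed for Sod2 and Cat, 1 rose and 4 fell in the average. Their median was -0.16, where 4.53% of all genes were called higher and 6.18% lower. Ppargc1a and Ppargc1b, coactivators of mitochondrial biogenesis, fell by 0.89 (adjusted p = 0.00501) and 0.76 (adjusted p = 0.000341). Ppara, a nuclear receptor of fatty acid oxidation, fell by 0.83 (adjusted p = 0.00755), and Sirt3, a mitochondrial deacetylase that activates the Sod2 protein, by 0.52 (adjusted p = 0.00121). Ppargc1a is also 1 of the 11 brown adipocyte markers that fell with Sod2. The gene that rose, Foxo3, was named after its values were seen (0.36).

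**Figure D5:**
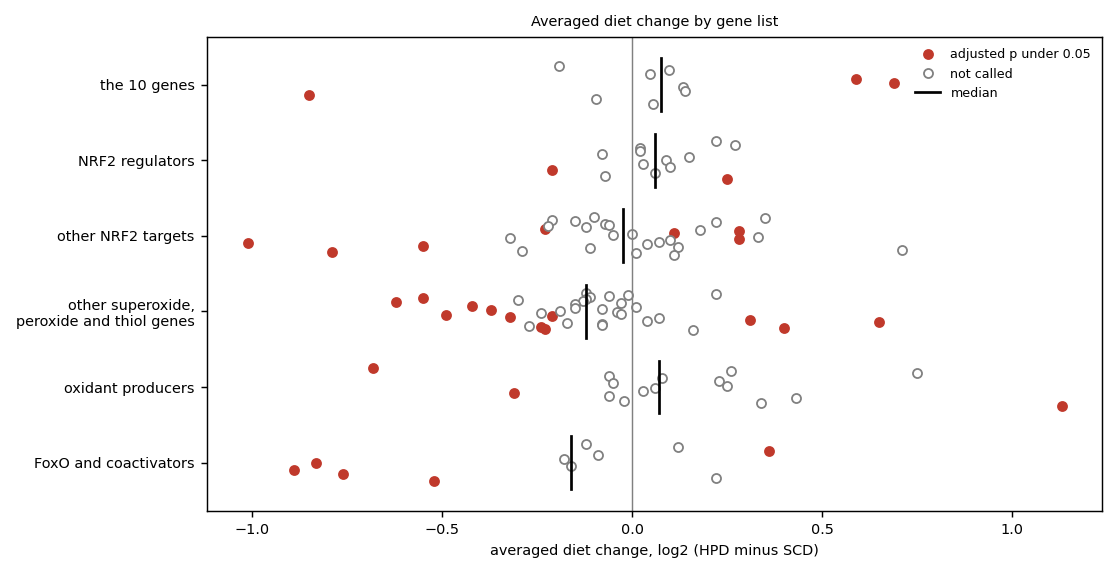
Averaged diet change (HPD minus SCD, log2, x axis) of every measured gene (points) in the 10 genes and in 5 wider lists (rows), with the median of each list as a vertical bar. Filled points passed an adjusted p under 0.05, and of the 36 other superoxide, peroxide and thiol genes 9 of these lie left of 0 and 3 right.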

How the data were processed

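The authors deposited 1 value per probe set and array, 41345 probe sets on 15 arrays, taken here as log2 intensities. Per the labels, the RNA was amplified and biotin-labelled with NuGEN kits. RMA and Partek are named, with no role or version, in the submitters' processing notes. The log base is not given in the sources used here and was inferred from the range, 1.381 to 13.33. Array medians lay between 5.778 and 5.84, and the number of arrays limits precision. No scan dates were at hand, so batches could not be looked for.

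Probe sets naming exactly 1 gene (23521) were kept, the brightest per gene, which left 22180 genes. A model of 4 group means was fitted to all of them by lmFit and eBayes (trended variance) of limma 3.58.1, under R 4.3.3, on 11 residual degrees of freedom. Genes were called at a two-sided p under 0.05 after Benjamini-Hochberg adjustment across the 22180. The contrasts were HPD minus SCD per segment, the mean of both, their difference, and the segment difference on each diet. The method was tested on simulated data with independent normal noise and the same diet shift in both segments. That simulation held no neighbouring tissue or outlying arrays, so it cannot show how the method handles them. Figures used matplotlib 3.10.9. The members and lists were chosen with earlier results of these data known. All 10 members are named, and up to 4 genes of each other list by smallest p in the averaged diet change and in the SCD segment difference. Genes most like a member were ranked by Pearson's r over 15 arrays. Alternatives changed the variance prior, filter, groups in the fit, scaling, array weights, replicate block, probe set rule and arrays included.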

Additional observations from a re-analysis of the deposited data

Results flagged for a closer look

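Gclc had a lone low array in each chow group. In abdominal SCD arrays, replicate 2 read 8.55 while the other 3 lay between 8.75 and 8.79. In thoracic SCD arrays, replicate 3 read 8.22 while the other 3 lay between 8.41 and 8.44. In each case the gap to the nearest array took more than 0.829 of the group's range, the critical value for 4 arrays (0.834 and 0.853). Of the 30 groups of 4 arrays looked at over the 10 genes, 2 met this rule, and chance meets it in about 1 of 20. The thoracic HPD groups, with 3 arrays, were not looked at.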

How the results depend on the processing

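The averaged diet change called Sod2, Hmox1 and Gpx3 in the main fit and in all 24 alternatives, with Cat added without thoracic HPD array 1, so its count was 3 to 4 when single arrays were left out. No gene of the 10 was called for a difference between the diet changes in any of 24. Other counts moved. Of the 3 called in the abdominal diet change, 1 remained (Sod2) with only the groups compared and with median centring, 1 to 2 when single arrays were left out, and 0 without the 5 arrays with lymphocyte genes. The thoracic count of 1 became 2 with dim genes removed, with quantile normalization and with array weights, and ranged from 0 to 2 when single arrays were left out. Between segments on SCD the count of 0 became 1 (Gclc) with only the groups compared and without the 2 arrays with hepatocyte genes, and was 0 to 1 when single arrays were left out. On HPD the count of 2 was 1 to 3 when single arrays were left out and 0 without the 5 arrays. The replicate number as a block raised the thoracic count to 3, with Hmox1 (0.73, adjusted p = 0.0425) and Sod2 (-0.65, adjusted p = 0.0308), and changed no other call. With group means removed, the r of same-numbered arrays was -0.25 to 0.40 between abdominal groups and 0.03 to 0.17 between the others. Differently numbered arrays were not compared, so these r values cannot show whether the numbers mark pairs. The main fit did not take them as pairs. The cause of these moves in the counts was not tested, beyond the smaller number of arrays or genes in some fits.

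Over all genes the abdominal count of 1554 ranged from 137 to 2249, the thoracic count of 548 from 209 to 907, the averaged count of 2376 from 1029 to 2888, the SCD segment count of 1061 from 496 to 1369, the HPD segment count of 3067 from 466 to 4364, and the count of 0 for the difference of diet changes up to 43.

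Of 1480 changes of single genes refitted, 46 turned sign, all of them of genes called neither before nor after. In the abdominal diet change Nqo1 was -0.025 with quantile normalization, -0.025 with median centring, -0.054 with array weights and -0.217 without the 2 hepatocyte arrays, where Gclc was -0.015. Without the 5 lymphocyte arrays Gclm was 0.161 and Txnrd1 -0.077. In the average Gclm was -0.024 without the 2 hepatocyte arrays and Txnrd1 -0.006 without the 5. Also without the 5, the difference of diet changes was 0.004 for Nqo1, -0.097 for Hmox1 and 0.185 for Gclc, the SCD segment difference 0.037 for Hmox1 and -0.037 for Gpx3, and the HPD one 0.134 for Hmox1 and -0.179 for Gclm. In the HPD segment difference Srxn1 was 0.015 with quantile normalization and 0.020 with median centring, and Cat 0.010 with median centring, 0.029 with array weights and 0.039 without the 2 arrays. With single arrays left out, the abdominal diet change ranged from -0.129 to 0.106 for Nqo1, -0.050 to 0.118 for Gclc, -0.172 to 0.018 for Gclm and -0.049 to 0.111 for Txnrd1. The thoracic one ranged from -0.011 to 0.130 for Txnrd1 and -0.038 to 0.001 for Srxn1, and the average from -0.003 to 0.092 for Gclm. The difference of diet changes ranged from -0.185 to 0.054 for Cat, -0.188 to 0.011 for Gclc, -0.002 to 0.318 for Hmox1 and -0.114 to 0.053 for Txnrd1. Segment differences ranged from -0.004 to 0.270 for Gpx3 on SCD, and on HPD from -0.132 to 0.108 for Cat and -0.079 to 0.028 for Srxn1.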
